A study of Mus musculus with 12 samples.

Results

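Antigen presentation was followed through 10 genes in mouse liver RNA-seq, 5 of the major histocompatibility complex (MHC) class I route (H2-K1, H2-D1, B2m, Tap1 and Psmb8) and 5 of the class II route (H2-Aa, H2-Ab1, H2-Eb1, Cd74 and Ciita). They were taken by symbol, and all 10 were found among the 55536 genes of the deposited tables. The study sequenced 12 liver samples in 3 groups of 4. The shG0s2 mice received adenovirus carrying a short hairpin RNA against G0s2, which encodes an inhibitor of adipose triglyceride lipase. The shRgs16 mice received a hairpin against Rgs16, whose product hastens the end of G protein signalling. The shLacZ mice, the control, received a hairpin against bacterial lacZ. All mice were wild-type C57BL/6J aged 8 weeks, and every group, the control included, carried adenovirus given into the tail vein at 0.1 OD. Livers were collected after 12 days at zeitgeber time 12, when food had been absent for 6 h. The labels give neither the sex of the mice nor the liver cells that took up the virus. The comparisons ask how each knockdown altered liver RNA relative to shLacZ, and here how the class I and the class II genes did so.

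Class I molecules sit on almost every nucleated cell. They hold peptides of cytosolic proteins that the proteasome cuts and a transporter in the endoplasmic reticulum membrane brings in, and they show them to CD8+ T cells. Class II molecules are made mainly by dendritic cells, B cells and macrophages, which in liver include the resident Kupffer cells. They are loaded in endosomes with peptides of material taken up from outside, and they show these to CD4+ T cells. Hepatocytes, the bulk of the liver, express class I genes and little class II under normal conditions. Among the class II genes, H2-Aa and H2-Ab1 encode the alpha and beta chains of the I-A molecule and H2-Eb1 the beta chain of I-E. Cd74 encodes the invariant chain, the chaperone that guards the empty class II groove, and Ciita encodes the co-activator that most class II transcription requires. Among the class I genes, H2-K1 and H2-D1 encode the classical heavy chains and B2m the light chain beta-2-microglobulin. Tap1 encodes a subunit of the peptide transporter, and Psmb8 encodes a catalytic subunit of the immunoproteasome.

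Promoters of 7 of the 10 genes were available from RefSeq on GRCm38.p6 (H2-K1, H2-D1, B2m, Tap1, Psmb8, H2-Aa and H2-Eb1), and those of H2-Ab1, Cd74 and Ciita are only named here. The 3 below are printed because they set a class I heavy chain beside 2 class II chains. Each runs from base -140 to base -21 before the annotated start, 5′ to 3′ on the strand of the gene. The first lies on the minus strand at chr17:34000368-34000487, the second on the minus strand at chr17:34287844-34287963 and the third on the plus strand at chr17:34305727-34305846. Capitals mark a kB site in H2-K1, the Y box in H2-Aa, and the Y box followed by a CCAAT box in H2-Eb1.
H2-K1: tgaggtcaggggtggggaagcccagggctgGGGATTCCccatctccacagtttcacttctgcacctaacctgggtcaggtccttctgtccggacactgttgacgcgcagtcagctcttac
H2-Aa: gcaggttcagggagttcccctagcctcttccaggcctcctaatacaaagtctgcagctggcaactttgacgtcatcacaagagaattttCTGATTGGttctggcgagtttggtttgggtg
H2-Eb1: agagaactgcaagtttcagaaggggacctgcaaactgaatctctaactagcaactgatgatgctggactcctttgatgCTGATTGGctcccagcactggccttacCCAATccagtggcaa

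The Y box, searched as CTGATTGG on both strands in the 250 bases before each start, is the element that the factor NF-Y is known to bind in class II promoters, and its last 5 letters are a CCAAT box read backwards. It began at base -51 in H2-Aa and at base -62 in H2-Eb1. The same letters lay on the opposite strand at base -53 in H2-D1 and at base -222 in Tap1, both class I genes, and 3.83% of 32851 mouse promoters of that length held them. The kB site, searched as GGGATTCC, began at base -110 in H2-K1 and at base -170 in H2-D1, and 0.89% of promoters held it. CCAAT alone was present in 33.85% of promoters. Matches to a looser X box pattern (CCNAGNNAC, in 14.51% of promoters) began at base -180 in H2-Aa and base -98 in Tap1. The interferon-stimulated response element, as TTCNNTTTC, lay at base -139 in B2m and in 7.13% of promoters, and the GAS element, as TTCNNNGAA, lay at base -97 in Psmb8 and in 7.02% of promoters. These matches describe letters in the window and were not tested for use in liver. An element that departs from the letters searched is missed. A match may therefore not be the working element, and a promoter without a match may still hold one.

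Estimated counts summed to between 18458266 and 26031061 in shG0s2, between 24855361 and 27170443 in shRgs16 and between 25636504 and 26472233 in shLacZ. Rgs16 averaged 26.2 CPM (counts scaled to a common library size) in shRgs16 livers and 149 CPM in shLacZ livers. G0s2 averaged 37.2 CPM in shG0s2 livers and 73.7 CPM in shLacZ livers. In shG0s2 livers Rgs16 was also low, at 59.1 CPM on average. Between samples of a group the counts differed by more than counting noise, with chi-square values of 11.25 to 43.39 per degree of freedom. Whether each replicate was a separate animal is not in the labels. The p-values therefore reflect sample-to-sample spread, which may be technical. The composition of the libraries moved with the groups. The scaling factors that edgeR computed with the trimmed mean of M-values (TMM) were 1.13 to 1.25 in shG0s2, 0.998 to 1.05 in shRgs16 and 0.803 to 0.883 in shLacZ. The CPM given are scaled by these factors, and TPM are the authors' per-length abundances, which are not TMM-scaled.

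Per length, B2m and the class I heavy chains averaged above every class II gene in all 3 groups, and Psmb8 and Tap1 averaged below Cd74 and the class II chains. In shG0s2 livers B2m averaged 4519.9 ± 362 TPM (SD, n = 4), above H2-K1 at 2376 ± 83.8 TPM and H2-D1 at 1611 ± 53.4 TPM. Cd74 followed at 1090.0 ± 62.7 TPM, then H2-Aa at 471 ± 24.1, H2-Ab1 at 466 ± 22.8 and H2-Eb1 at 404 ± 21.6 TPM. These 3 chain genes overlapped in their samples between neighbours. Psmb8 at 124 ± 10.7 TPM, Tap1 at 49.7 ± 5.43 TPM and Ciita at 10.2 ± 5.29 TPM were the lowest. In shRgs16 livers the order was the same apart from H2-Ab1 and H2-Aa, which overlapped at 276 ± 27.4 and 273 ± 24.7 TPM. In shLacZ livers B2m averaged 3048 ± 318 TPM, H2-K1 2020.0 ± 159 and H2-D1 961 ± 66.7 TPM. The same livers held Cd74 at 249.6 ± 55.8 TPM and H2-Ab1 at 96.4 ± 25.4 TPM. There H2-Eb1 at 75.6 ± 23 TPM overlapped Psmb8 at 70.3 ± 12.4 TPM, which it did not in either knockdown.

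All 5 class II genes rose in shG0s2 livers. H2-Aa had 273, 234, 273 and 281 CPM in the shG0s2 samples, against 69.9, 87.0, 103 and 81.2 CPM in the shLacZ samples. The lowest shG0s2 sample stood above the highest shLacZ sample, and the log2 fold change was 1.65 ± 0.11 (SE, edgeR adjusted p = 2.79e-07). H2-Ab1, the partner chain, had 291, 249.8, 302 and 301 CPM in shG0s2, against 73.1, 102, 122 and 85.7 CPM in shLacZ. Its log2 fold change was 1.59 ± 0.15 (SE, edgeR adjusted p = 9.69e-06), and the groups were again separate. H2-Eb1 had 233, 208, 238 and 252 CPM in shG0s2, against 58.9, 70.4, 99.2 and 58.6 CPM in shLacZ. For this I-E chain the log2 fold change was 1.71 ± 0.17 (SE, edgeR adjusted p = 2.46e-05). The H2-Ea-ps locus, which stands for the partner alpha chain of I-E, was listed at 0 in all 12 samples, and it was looked up after the values of H2-Eb1 were seen. C57BL/6 mice are known to lack that alpha chain and so to show no I-E on their cells.

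Cd74 and Ciita moved with the chains. Cd74 had 710.3, 623, 725 and 759 CPM in shG0s2, against 213, 269, 328 and 247 CPM in shLacZ, a log2 fold change of 1.43 ± 0.12 (SE, edgeR adjusted p = 1.49e-06). Ciita, the co-activator gene, had 23.8, 21.3, 28.6 and 22.8 CPM in shG0s2, against 5.12, 5.90, 8.67 and 5.08 CPM in shLacZ. Its log2 fold change of 1.97 ± 0.17 was the highest of the 10 genes (SE, edgeR adjusted p = 2.4e-06). No shG0s2 sample overlapped a shLacZ sample for either gene. Thus 5 of 5 class II genes were called higher and at least 2-fold higher, where 31.3% of the 15592 genes tested were called higher and 13.9% at least 2-fold higher. Groups were separate with shG0s2 on top for 28.2% of genes. In liver as a whole, fewer cells of a type and less RNA per cell cannot be told apart, and the same holds for more of either.

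**Figure D1:**
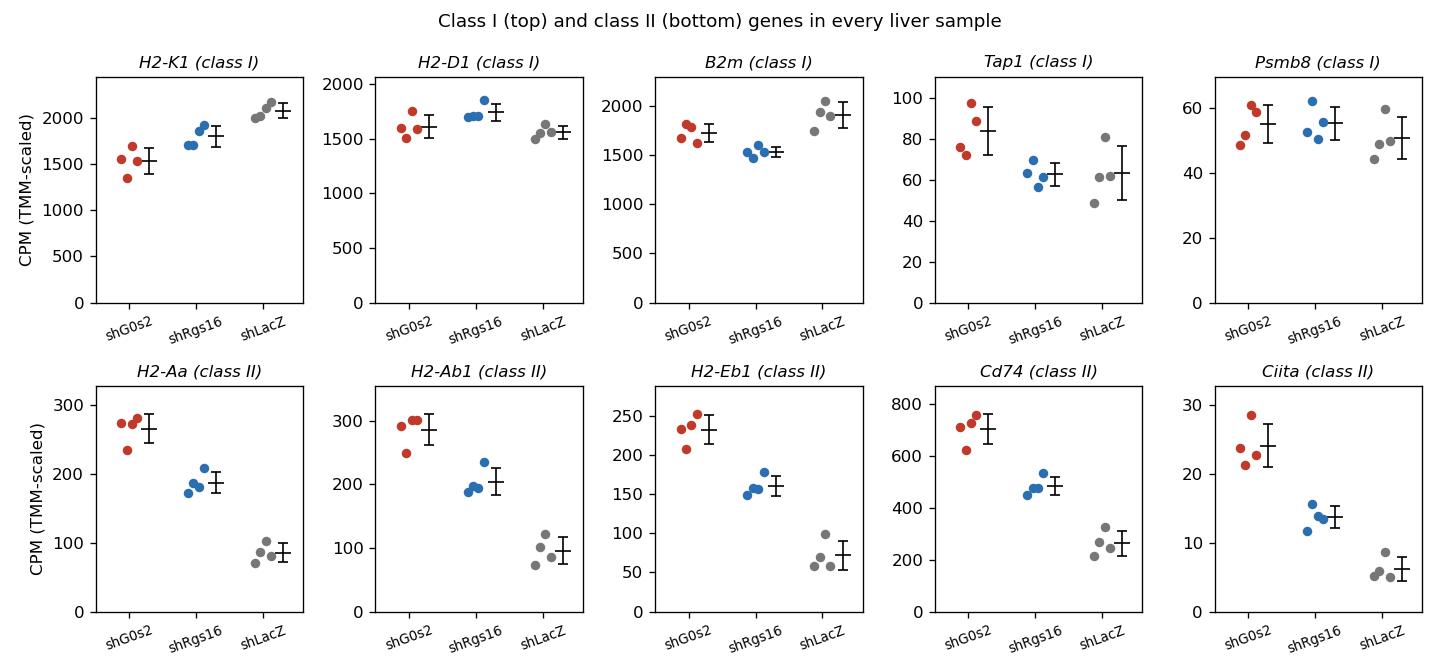
TMM-scaled CPM (vertical axes, from 0, each with its own scale) of the 5 class I genes (top) and the 5 class II genes (bottom) in each of the 12 liver samples, with group mean ± SD (n = 4) beside the points. For class II the 3 groups stand apart in steps, as for H2-Aa with means of 266 in shG0s2, 187 in shRgs16 and 85.2 CPM in shLacZ, whereas the class I panels overlap or differ by less.

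The class II genes also rose in shRgs16 livers, where 5 of 5 were called higher against 24.6% of the 15324 genes tested, and 4 of 5 were at least 2-fold higher against 7.05%. All 5 were also separate from shLacZ, as were 22.2% of genes with shRgs16 on top. H2-Aa had 172, 186, 181 and 208 CPM in shRgs16, all above the 103 CPM of the highest shLacZ sample. The log2 fold change was 1.13 ± 0.11 for H2-Aa (SE, edgeR adjusted p = 1.34e-05). H2-Ab1 had 188, 198, 195 and 236 CPM in shRgs16, and its log2 fold change was 1.09 ± 0.15 (SE, edgeR adjusted p = 0.000381). H2-Eb1, with 149, 159, 157 and 178 CPM in shRgs16, had a log2 fold change of 1.16 ± 0.17 (SE, edgeR adjusted p = 0.00061). Each of these chain genes was separate from its shLacZ values. Cd74 had 451, 477, 476 and 534 CPM in shRgs16, a log2 fold change of 0.87 ± 0.12 (SE, edgeR adjusted p = 0.000116). Ciita had 11.7, 15.6, 13.9 and 13.5 CPM in shRgs16, a log2 fold change of 1.14 ± 0.16 (SE, edgeR adjusted p = 0.000166). Both knockdowns were set against the same 4 shLacZ samples.

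A direct comparison of the knockdowns placed the class II genes higher in shG0s2 than in shRgs16. All 5 were called higher, where 21.0% of the 16018 genes tested were, and for each the lowest shG0s2 sample stood above the highest shRgs16 sample, as for 20.4% of genes. Ciita differed most, with a log2 fold change of 0.82 ± 0.14 (SE, edgeR adjusted p = 0.000398). Cd74 followed at 0.54 ± 0.11 (SE, edgeR adjusted p = 0.00099). The log2 fold changes of H2-Aa, H2-Eb1 and H2-Ab1 were 0.51, 0.54 and 0.49, with edgeR adjusted p values of 0.000835, 0.01 and 0.0106.

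Under TMM scaling the class I genes made small and mixed changes. In shG0s2 livers 1 of 5 was called higher and 1 lower, where 31.3% and 29.2% of all genes were and 60.5% in either direction, so the count is not above the background. With library size alone 4 of 5 were called higher and none lower, where that scaling called 64.6% of all genes higher. H2-K1 had 1559, 1352, 1705 and 1539 CPM in shG0s2, against 2005, 2026, 2116 and 2184 CPM in shLacZ. The groups did not overlap, as for 27.4% of genes that stood lower, and the log2 fold change was -0.43 ± 0.09 (SE, edgeR adjusted p = 0.00156). H2-D1, the other classical heavy chain, had 1599.8, 1507, 1754 and 1592 CPM in shG0s2, against 1495, 1550.4, 1639 and 1560.0 CPM in shLacZ. These overlapped, at a log2 fold change of 0.06 ± 0.08 (SE, edgeR adjusted p = 0.571). B2m had 1672, 1819, 1783 and 1625 CPM in shG0s2, against 1739.9, 1937, 2054 and 1898 CPM in shLacZ, and did not pass the test (log2 fold change -0.14 ± 0.09 SE, edgeR adjusted p = 0.194).

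The genes that supply peptides behaved likewise. Tap1 had 76.2, 72.3, 97.8 and 89.0 CPM in shG0s2, against 48.9, 61.6, 81.0 and 62.1 CPM in shLacZ. It was called higher at a log2 fold change of 0.41 ± 0.15 (SE, edgeR adjusted p = 0.0435), although the groups overlapped. That call was lost without shG0s2 replicate 3 or 4 or shLacZ replicate 1, 2 or 4 (edgeR adjusted p = 0.0659 to 0.105). Psmb8 had 48.4, 51.7, 60.7 and 58.8 CPM in shG0s2, against 44.3, 48.8, 59.6 and 49.8 CPM in shLacZ. The log2 fold change of this immunoproteasome subunit was 0.13 ± 0.10 (SE, edgeR adjusted p = 0.286).

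In shRgs16 livers 2 of 5 class I genes were called lower, where 24.5% of genes were and 49.1% were called in either direction. B2m had 1529, 1469.7, 1599 and 1534 CPM in shRgs16, below every shLacZ sample, at a log2 fold change of -0.32 ± 0.07 (SE, edgeR adjusted p = 0.00353). H2-K1 had 1714, 1713, 1859 and 1933 CPM in shRgs16, also below every shLacZ sample, at -0.21 ± 0.07 (SE, edgeR adjusted p = 0.0321). Such a separation with shRgs16 below held for 22.7% of genes. The H2-K1 call was lost without shRgs16 replicate 1 or 2 or shLacZ replicate 2 or 4 (edgeR adjusted p = 0.0563 to 0.1). H2-D1 had 1699, 1709, 1709 and 1859.5 CPM in shRgs16, above every shLacZ sample, yet it did not pass the test (log2 fold change 0.16 ± 0.07 SE, edgeR adjusted p = 0.0753). DESeq2 and limma-voom did call it higher (adjusted p = 0.0158 and 0.0473). Tap1 had 63.2, 69.8, 56.6 and 61.4 CPM and Psmb8 52.5, 62.2, 50.3 and 55.6 CPM in shRgs16. Their log2 fold changes were -0.02 and 0.12, with edgeR adjusted p values of 0.926 and 0.301.

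Between the knockdowns, 1 class I gene was called in each direction, where 21.0% of genes were called higher, 20.5% lower and 41.5% in either direction. Groups were separate with shG0s2 below, as for H2-K1, in 19.4% of genes. Tap1 was higher in shG0s2, at a log2 fold change of 0.42 ± 0.14 (SE, edgeR adjusted p = 0.0288). H2-K1 was lower in shG0s2, at -0.23 ± 0.08 (SE, edgeR adjusted p = 0.036). The Tap1 call was lost without shG0s2 replicate 3 or 4 or shRgs16 replicate 1, 3 or 4 (edgeR adjusted p = 0.0613 to 0.088). The H2-K1 call was lost without shG0s2 replicate 1, 2 or 4 or shRgs16 replicate 3 or 4 (edgeR adjusted p = 0.0512 to 0.107). B2m, H2-D1 and Psmb8 had edgeR adjusted p values of 0.0837, 0.237 and 0.962.

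Set side by side, the median log2 fold change in shG0s2 against shLacZ was 0.06 over the 5 class I genes and 1.65 over the 5 class II genes, against 0.01 over all genes tested. The ranges were separate, -0.43 to 0.41 for class I and 1.43 to 1.97 for class II. In shRgs16 against shLacZ the medians were -0.02 for class I and 1.13 for class II, with ranges of -0.32 to 0.16 and 0.87 to 1.16. In shG0s2 against shRgs16 they were -0.01 and 0.54. Among all genes, the lowest class II gene in shG0s2, Cd74, had a log2 fold change at or above that of 91.89% of genes, and the highest class I gene, Tap1, at or above that of 71.4%. No test was applied to the difference between the classes, since the genes were chosen with results of these data known.

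The direction of the small class I changes depended on the scaling, and that of the class II changes did not. With library size alone in place of TMM, the median of all genes was 0.50 in shG0s2 against shLacZ and 0.31 in shRgs16 against shLacZ. H2-K1 in shG0s2 then stood at a log2 fold change of 0.06 (edgeR adjusted p = 0.489) and B2m at 0.35 (edgeR adjusted p = 0.00279), with TMM at -0.43 and -0.14. H2-D1 and Psmb8 gained calls in shG0s2, at 0.54 and 0.61 (edgeR adjusted p = 2.17e-05 and 0.000295), close to the median of all genes under that scaling. They also gained calls in shRgs16, at 0.46 and 0.42 (edgeR adjusted p = 0.000164 and 0.00909), where 50.2% of genes were called higher. In shRgs16 H2-K1 stood at 0.09 and B2m at -0.02. Relative to the median of all genes, H2-K1 and B2m remained below it in both knockdowns. The class II medians became 2.13 in shG0s2 and 1.43 in shRgs16, and the class I medians 0.54 and 0.28. The gap between the classes, class I minus class II, was -1.59 with TMM and with library size alone in shG0s2, and -1.15 with both in shRgs16.

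**Figure D2:**
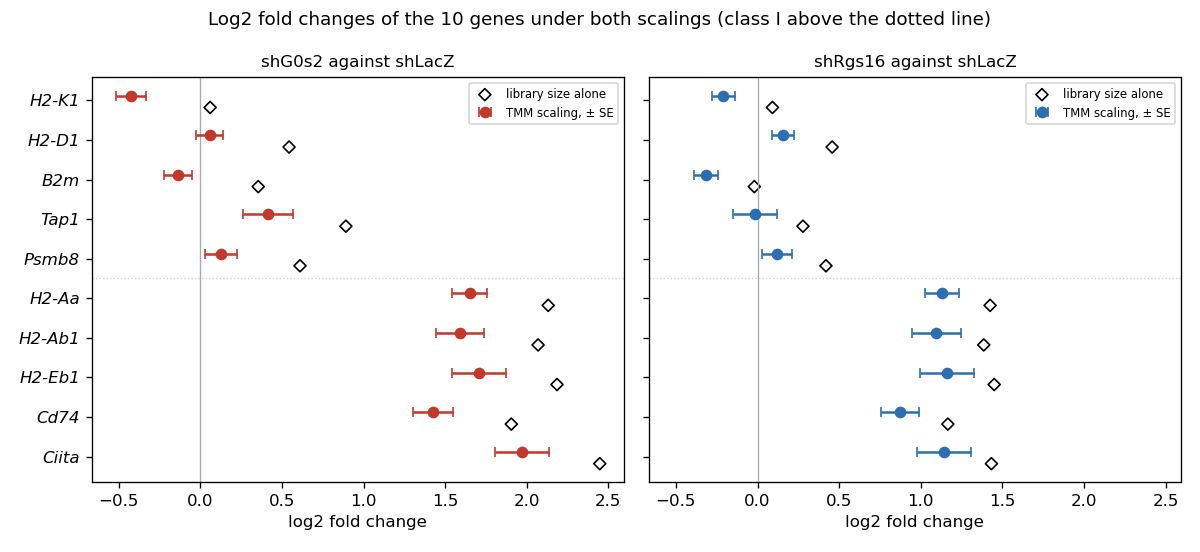
Log2 fold change (horizontal axes) of each class I gene (above the dotted line) and class II gene (below it) in shG0s2 against shLacZ (left) and shRgs16 against shLacZ (right). Filled points with bars are the edgeR estimates ± SE under TMM scaling and open diamonds the estimates under library size alone, which moved every gene to the right, H2-K1 in shG0s2 to 0.06 with TMM at -0.43, and kept the classes apart.

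Ratios within a sample do not depend on that scaling. The summed TPM of the class II genes over that of the class I genes was 0.289, 0.253, 0.274 and 0.313 in shG0s2, 0.186, 0.199, 0.188 and 0.210 in shRgs16, and 0.0722, 0.0862, 0.0993 and 0.0766 in shLacZ. The 3 groups did not overlap. Within class II the proportions held closely for the I-A pair. H2-Aa over H2-Ab1 averaged 1.01 ± 0.022 in shG0s2, 0.990 ± 0.0275 in shRgs16 and 0.975 ± 0.0674 in shLacZ (SD, n = 4 each), and these overlapped. Cd74 over the summed chains was lower in the knockdowns, at 0.812 ± 0.00921 in shG0s2 and 0.785 ± 0.01 in shRgs16, against 0.948 ± 0.0343 in shLacZ (SD, n = 4 each), with no overlap with shLacZ. 

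Within class I the heavy chains changed unequally. H2-K1 over H2-D1 in TPM was 1.49, 1.48, 1.48 and 1.45 in shG0s2 and 1.48, 1.48, 1.61 and 1.57 in shRgs16, against 2.06, 2.05, 2.12 and 2.18 in shLacZ. Every knockdown sample was below every shLacZ sample. Both genes had fractional estimated counts in all 12 samples, a sign that reads shared with similar class I genes were divided by a model, so the value of each heavy chain carries that uncertainty. H2-Ab1 and Tap1 had fractional counts in 8 samples, Psmb8 in 1, and the other 5 genes in none. B2m over the summed heavy chains averaged 1.13 ± 0.101 in shG0s2, 0.883 ± 0.0399 in shRgs16 and 1.02 ± 0.0401 in shLacZ (SD, n = 4 each). Psmb8 over Psmb5, the constitutive subunit that Psmb8 replaces in the immunoproteasome, averaged 0.612 ± 0.0565 in shG0s2, 0.611 ± 0.092 in shRgs16 and 0.463 ± 0.0604 in shLacZ (SD, n = 4 each). That ratio overlapped between each knockdown and shLacZ.

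**Figure D3:**
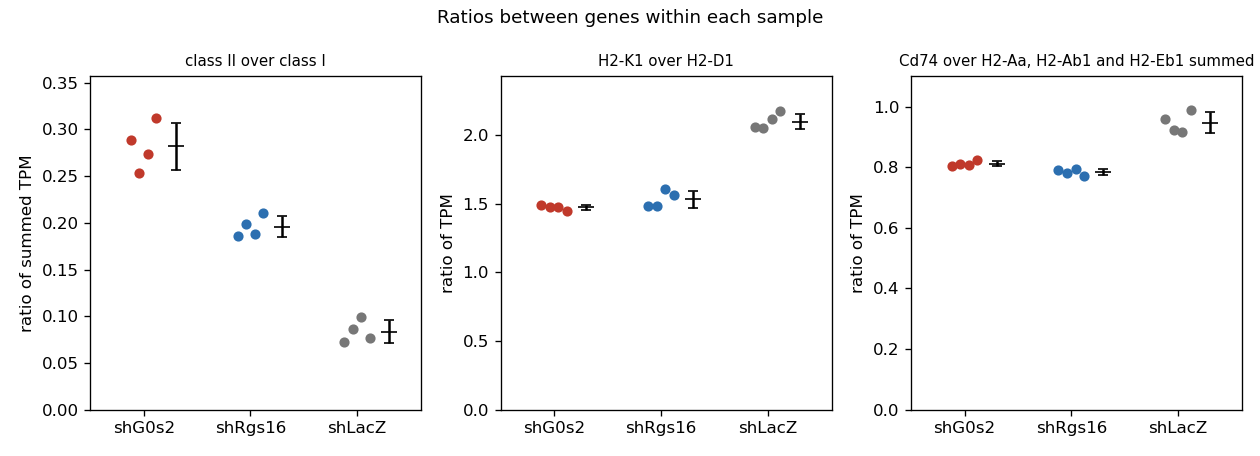
Ratios between genes in each sample (vertical axes, from 0), with group mean ± SD (n = 4) beside the points. Class II over class I in summed TPM fell into 3 separate groups with means of 0.282 in shG0s2, 0.196 in shRgs16 and 0.0836 in shLacZ, H2-K1 over H2-D1 was lower in both knockdowns, and Cd74 over the summed class II chains averaged 0.812 in shG0s2, 0.785 in shRgs16 and 0.948 in shLacZ.

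The 2 routes are interleaved in the genome, with class I genes of small change lying between class II genes of larger change. On GRCm38 (GENCODE), H2-K1 (chromosome 17, bases 33996017 to 34000347, minus strand) and H2-D1 (35262730 to 35267499, plus strand) lie at the ends of the stretch, both protein-coding. Tap1 (34187553 to 34197225, plus strand) and Psmb8 (34197721 to 34201454, plus strand) lie between class II genes. H2-Ab1 (34257689 to 34269419, plus strand), H2-Aa (34282744 to 34287823, minus strand) and H2-Eb1 (34305867 to 34316674, plus strand) follow. Genes between them that are not among the 10 were taken for their position. On the side towards H2-K1, H2-DMb1, which encodes a chain of the peptide editor of class II, had a log2 fold change of 1.69 ± 0.10 in shG0s2 (SE, edgeR adjusted p = 6.72e-08). Psmb9, Tap1, Psmb8 and Tap2, the next 4 genes of the class I route, had 0.40, 0.41, 0.13 and 0.28, with edgeR adjusted p values of 0.0386, 0.0435, 0.286 and 0.0711. H2-Ob, which encodes a chain of an inhibitor of that editor, came next at 0.37 (edgeR adjusted p = 0.183), and H2-Ab1 after it at 1.59.

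**Figure D4:**
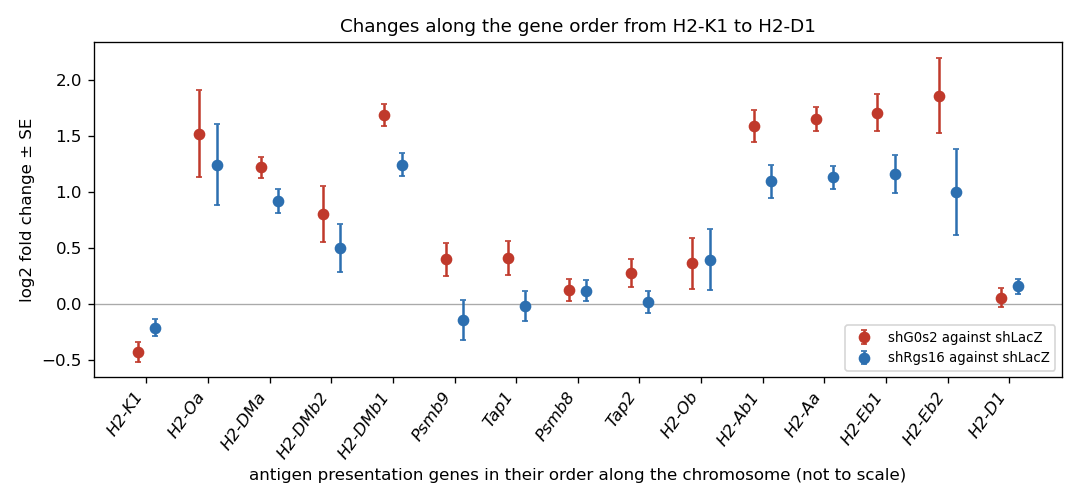
Log2 fold change ± SE from edgeR (vertical axis) of 15 antigen presentation genes in their order along the chromosome from H2-K1 to H2-D1 (horizontal axis, not to scale), for shG0s2 and shRgs16 each against shLacZ. Psmb9, Tap1, Psmb8 and Tap2 sit low between H2-DMb1 at 1.69 and H2-Ab1 at 1.59 in shG0s2.

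The remaining genes lie elsewhere: B2m on chromosome 2 (122147686 to 122153083, plus strand), Ciita on chromosome 16 (10480059 to 10528418, plus strand) and Cd74 on chromosome 18 (60803848 to 60812652, plus strand). Exons of Ciita share 329 bases with Dexi, those of Tap1 212 bases with Psmb9 and those of Psmb8 498 bases with Gm20496, each on the opposite strand. The strand setting of the counting is not stated, so reads from these pairs cannot be told apart there. For Ciita the deposited TPM did not follow the counts. TPM per CPM of the library was 0.559 in shG0s2 replicate 3, 0.67 in shRgs16 replicate 3 and 1.17 in shLacZ replicate 4, and the ratio of highest to lowest over the 12 samples was 5.51. For the other 9 genes that ratio was 1.17 to 1.25. Ciita TPM was 8.73, 6.97, 18.1 and 7.08 in shG0s2, against 0.910, 1.03, 1.74 and 4.79 in shLacZ, still separate. In shRgs16 it was 2.94, 4.09, 9.31 and 3.45, which overlapped both.

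Most of the other genes of the class II route were called higher in both knockdowns. Of 13 accessory genes tested, 10 were called higher and 2 lower in shG0s2 livers, where 31.3% and 29.2% of all genes were, and 9 were called higher and 1 lower in shRgs16 livers, where 24.6% and 24.5% were. They had median log2 fold changes of 0.98 in shG0s2 and 0.89 in shRgs16, against 0.01 for all genes in each. H2-DMb1 averaged 29.3 ± 2.61 CPM in shG0s2 and 9.16 ± 1.01 CPM in shLacZ (SD, n = 4 each). Ctss, the cathepsin that trims the invariant chain, averaged 233 ± 16.1 CPM in shG0s2, 199.7 ± 19.5 CPM in shRgs16 and 108 ± 6.78 CPM in shLacZ (SD, n = 4 each). March8, a ubiquitin ligase that sends class II and other surface proteins to lysosomes, was called lower in both. Its log2 fold changes were -0.95 in shG0s2 and -1.05 in shRgs16 (edgeR adjusted p = 2.36e-07 and 8.19e-07). March1, of the same list and named after its values were seen, was called higher in both. It stood at 0.74 in shG0s2 and 0.68 in shRgs16 (edgeR adjusted p = 5.07e-05 and 0.000119). In shG0s2 against shRgs16, 4 of the 13 were called higher, where 21.0% of all genes were, H2-DMb1 at 0.43 and H2-DMa at 0.29 among them (edgeR adjusted p = 0.00158 and 0.0207), and 1 lower, the cathepsin gene Ctsl at -0.34 (edgeR adjusted p = 0.00314).

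The other genes of the class I route were called in both directions under TMM scaling, and the balance depended on the scaling. Of 15 genes of peptide supply and loading, 5 were called higher and 6 lower in shG0s2, and 4 and 5 in shRgs16, with median log2 fold changes of 0.13 in shG0s2 and -0.14 in shRgs16. The shares of all genes were 31.3% higher and 29.2% lower in shG0s2, and 24.6% and 24.5% in shRgs16, and the counts are near them. With library size alone the same 15 genes split as 12 higher and 2 lower in shG0s2, and as 7 and 3 in shRgs16. That scaling called 64.6% of all genes higher in shG0s2 and 50.2% in shRgs16. It called 1246 of 15592 genes lower in shG0s2 and 1279 of 15324 in shRgs16. Tapbp, the tapasin that bridges the transporter to class I, was called higher in both, at 0.54 in shG0s2 and 0.28 in shRgs16 (edgeR adjusted p = 8.04e-05 and 0.00957). Those called lower included general chaperones of the endoplasmic reticulum, with Hspa5 at -0.87 in shG0s2 and -0.85 in shRgs16 (edgeR adjusted p = 0.000302 and 3.84e-05). Calr in shG0s2 and Pdia3 in shRgs16 stood at -0.71 and -0.54 (edgeR adjusted p = 9.48e-05 and 2.94e-05). Of 14 subunits of the constitutive proteasome, 12 were called lower in shG0s2 with TMM. Library size alone called 5 of them higher and 0 lower, beside its 64.6% of all genes called higher. In shRgs16 livers 13 were called lower with TMM, against 1 higher and 5 lower with library size alone. There library size alone called 50.2% of all genes higher and only 1279 of 15324 lower. The median of the subunits stayed below that of all genes under both scalings. In shG0s2 it was -0.34 against 0.01 with TMM, and 0.145 against 0.50 with library size alone. In shRgs16 it was -0.37 against 0.01, and -0.07 against 0.31. Psmb7 averaged 99.7 ± 1.27 CPM in shG0s2, 108 ± 2.48 CPM in shRgs16 and 146 ± 4.81 CPM in shLacZ (SD, n = 4 each).

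Of 20 nonclassical class I and related genes tested, 6 were called higher and 8 lower in shG0s2, where 31.3% and 29.2% of all genes were, and 7 and 4 in shRgs16, where 24.6% and 24.5% were. Library size alone gave 12 higher and 3 lower in shG0s2, and 12 and 2 in shRgs16. That scaling called 64.6% and 50.2% of all genes higher, so the shG0s2 count of genes called higher is not above the background. It called 1246 of 15592 genes lower in shG0s2 and 1279 of 15324 in shRgs16. H2-Q1 averaged 18.7 ± 3.56 CPM in shG0s2, 5.08 ± 2.22 CPM in shRgs16 and 1.37 ± 0.639 CPM in shLacZ (SD, n = 4 each). Its log2 fold change was 3.78 in shG0s2, larger than that of any of the 10 members, with an edgeR adjusted p of 1.49e-06. H2-Q1 belongs to a family of near-identical copies, so reads may be divided among them. Cd1d1, which presents lipids to natural killer T cells, was called lower in both, at -0.92 in shG0s2 and -0.68 in shRgs16 (edgeR adjusted p = 4.89e-07 and 9.27e-06). H2-T23, which encodes Qa-1, a ligand of natural killer cell receptors, was called higher in shRgs16 at 0.30 (edgeR adjusted p = 0.00122). With TMM it was called lower in shG0s2 at -0.33 (edgeR adjusted p = 0.013), where library size alone gave 0.15. In shG0s2 against shRgs16 it was lower at -0.64 (edgeR adjusted p = 3.84e-05).

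Of 17 regulators of MHC transcription and interferon-gamma signalling, 10 were called higher and 1 lower in shG0s2, and 6 and 1 in shRgs16. The shares of all genes called higher and lower were 31.3% and 29.2% in shG0s2, and 24.6% and 24.5% in shRgs16. The regulators had median log2 fold changes of 0.33 in shG0s2 and 0.12 in shRgs16. Irf8, a factor of myeloid cells, averaged 47.4 ± 3.14 CPM in shG0s2, 39.6 ± 2.35 CPM in shRgs16 and 22.1 ± 2.45 CPM in shLacZ (SD, n = 4 each). Ifngr1, a chain of the interferon-gamma receptor, was called higher at log2 fold changes of 0.69 in shG0s2 and 0.54 in shRgs16 (edgeR adjusted p = 1.12e-05 and 0.000119). Irf2 was the gene called lower in both, at -0.67 in shG0s2 and -0.31 in shRgs16 (edgeR adjusted p = 7.96e-07 and 0.00174). Of 19 interferon-gamma target genes, 11 were called higher and 1 lower in shG0s2, against 31.3% of all genes called higher. In shRgs16 4 were called higher and 1 lower, against 24.6% of all genes called higher, so that count is not above the background. They had median log2 fold changes of 0.76 in shG0s2 and 0.09 in shRgs16. In the direct comparison 9 were called higher and 2 lower in shG0s2, where 21.0% and 20.5% of all genes were. Gbp4, a guanylate-binding protein gene, averaged 43.4 ± 6.15 CPM in shG0s2 and 24.8 ± 3.22 CPM in shRgs16 (SD, n = 4 each, edgeR adjusted p = 6.51e-05). Cxcl10, a chemokine gene of that list, went the other way, with 16.0 ± 1.39 CPM in shG0s2 and 27.9 ± 5.78 CPM in shRgs16 (SD, n = 4 each, edgeR adjusted p = 0.00923).

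Of 7 tested co-stimulation genes, 6 were called higher in each knockdown. Among all genes, 31.3% were called higher in shG0s2 and 24.6% in shRgs16. Cd83, a surface protein of mature antigen-presenting cells that stabilises class II there, averaged 9.60 ± 1.47 CPM in shG0s2, 8.85 ± 2.29 CPM in shRgs16 and 3.43 ± 0.462 CPM in shLacZ (SD, n = 4 each). Icosl, the ligand of the T cell receptor ICOS, averaged 6.88 ± 0.549 CPM in shG0s2 and 2.32 ± 0.508 CPM in shLacZ (SD, n = 4 each).

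Markers of the cells that carry class II differed by cell type. Of 15 Kupffer cell and macrophage markers, 13 were called higher and 1 lower in shG0s2, and 12 and 1 of 14 tested in shRgs16, with median log2 fold changes of 0.74 in shG0s2 and 0.60 in shRgs16. Their summed level was 1702 to 2018 CPM in shG0s2, 1631 to 1834 CPM in shRgs16 and 1249 to 1343 CPM in shLacZ. Cd68 averaged 48.5 ± 5.47 CPM in shG0s2, 45.8 ± 4.64 CPM in shRgs16 and 20.7 ± 1.77 CPM in shLacZ (SD, n = 4 each). Of 13 dendritic cell markers, 7 were called higher and 6 did not pass in each knockdown. The median log2 fold changes of the 13 were 1.01 in shG0s2 and 0.76 in shRgs16. Their summed level was 256 to 299 CPM in shG0s2, 289 to 319 CPM in shRgs16 and 223 to 273 CPM in shLacZ. Bst2, which passed the test in none of the 3 comparisons, made up most of that sum, with 187 to 230.2 CPM in shG0s2, 223 to 257 CPM in shRgs16 and 188 to 235 CPM in shLacZ. Itgax, the integrin CD11c, averaged 21.8 ± 3.55 CPM in shG0s2, 18.8 ± 2.51 CPM in shRgs16 and 3.81 ± 1.1 CPM in shLacZ (SD, n = 4 each). Of the B cell markers, 4 of 15 were called higher in shG0s2, where 31.3% of all genes were, and 5 of 14 in shRgs16, where 24.6% were. Their median log2 fold changes were 0.10 in shG0s2 and 0.66 in shRgs16, at summed levels of 29.3 to 42.5 CPM in shG0s2, 37.8 to 42.5 CPM in shRgs16 and 21.0 to 38.8 CPM in shLacZ. In shG0s2 against shRgs16, where all 5 class II genes were called higher, 2 of 15 Kupffer cell and macrophage markers and 1 of 13 dendritic cell markers were called higher. Of 15 B cell markers 1 was called higher and 1 lower there, with a median log2 fold change of -0.40, and 21.0% of all genes were called higher. No marker of these 3 lists was at 0 in any sample.

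The lists of other cell types also differed from each other. Of all genes, 31.3% were called higher and 29.2% lower in shG0s2, and 24.6% and 24.5% in shRgs16. The endothelial counts in both knockdowns are near these shares or below them. In shRgs16 the stellate cell counts and the monocyte and neutrophil count are also near them. Of 16 T cell and natural killer cell markers, 12 were called higher and 1 lower in each knockdown, at summed levels of 70.1 to 78.9 CPM in shG0s2, 65.4 to 87.5 CPM in shRgs16 and 25.3 to 53.9 CPM in shLacZ. Of 9 monocyte and neutrophil markers, 5 were called higher in shG0s2 and 3 in shRgs16, at sums of 90.4 to 111 CPM in shG0s2, 63.4 to 95.4 CPM in shRgs16 and 49.5 to 75.9 CPM in shLacZ. Ly6g, a neutrophil marker, was at 0 in 1 shRgs16 sample. Of 10 stellate cell markers, 9 were called higher and 1 lower in shG0s2, and 3 were called higher and 3 lower in shRgs16, and their sum was 508 to 683 CPM in shG0s2, 298 to 325 CPM in shRgs16 and 322 to 382 CPM in shLacZ. Of 11 endothelial markers, 2 were called higher and 2 lower in shG0s2, and 3 were called higher and none lower in shRgs16, with median log2 fold changes of 0.07 in shG0s2 and 0.28 in shRgs16. They summed to 496 to 595 CPM in shG0s2, 523 to 730.0 CPM in shRgs16 and 548 to 580.1 CPM in shLacZ. Of 15 hepatocyte markers, 14 were called lower in shG0s2, and 2 were called higher and 10 lower in shRgs16. The hepatocyte markers summed to 38355 to 63412 CPM in shG0s2, 70184 to 75986 CPM in shRgs16 and 67584 to 82039 CPM in shLacZ. This was a high level of hepatocyte RNA in every sample. Alb was the largest part of that sum. It had 23841.2 to 40674.2 CPM in shG0s2, 39711.4 to 44876.5 CPM in shRgs16 and 28063.5 to 37270.5 CPM in shLacZ. Alb was called higher in shRgs16, at a log2 fold change of 0.33 (edgeR adjusted p = 0.0226).

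H2-Aa stood higher also relative to the sum of the Kupffer cell and macrophage markers, although not relative to each marker. H2-Aa over the summed Kupffer cell and macrophage markers averaged 0.145 ± 0.00991 in shG0s2, 0.105 ± 0.00627 in shRgs16 and 0.0661 ± 0.0121 in shLacZ (SD, n = 4 each, ratio of CPM). That ratio did not overlap between any of the 3 groups. The log2 fold change of the dendritic cell marker Itgax, 2.52 in shG0s2 and 2.30 in shRgs16, was larger than the 1.65 and 1.13 of H2-Aa. Among the other markers called higher, Marco at 1.79 in shG0s2, and Cd68 at 1.14 and Cd209a at 1.27 in shRgs16, were also above H2-Aa. Bst2, Marco and Cd209a are named after their values were seen. These differences between genes were not tested. The part of cell numbers, infection and RNA per cell in the class II change was not tested.

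**Figure D5:**
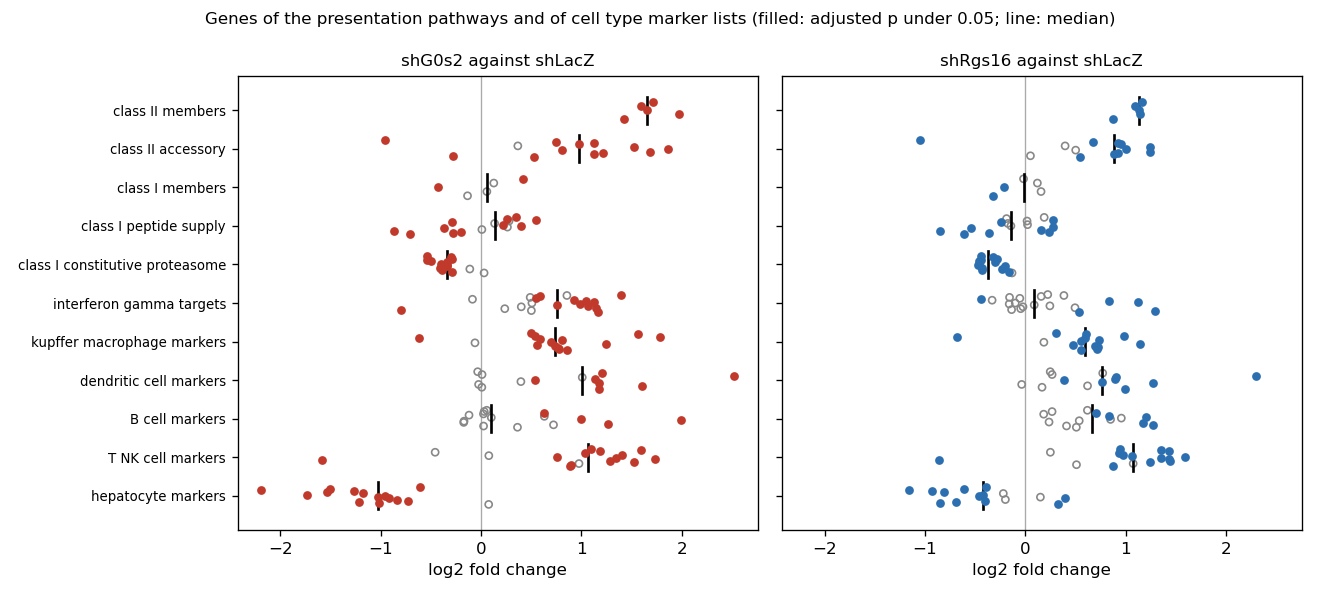
Log2 fold changes from edgeR (horizontal axes) of each tested gene of the member, pathway and cell type marker lists, in shG0s2 against shLacZ (left) and shRgs16 against shLacZ (right). Filled points are genes with an adjusted p under 0.05, open points are the others, and the vertical bar is the median of the list, which for the class II members is 1.65 on the left and 1.13 on the right, for the class I members 0.06 and -0.02, and for hepatocyte markers -1.03 and -0.42.

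Within groups, the class II genes varied together from sample to sample. After subtraction of group means, Pearson's r in log2 CPM over the 12 samples was 0.75 to 0.991 among the 10 pairs of class II genes, with a median of 0.918. Among the 10 pairs of class I genes it was 0.112 to 0.929, with a median of 0.393. Over the 25 pairs between the classes it was 0.325 to 0.794, with a median of 0.65, above that among class I genes. All genes of a sample share its library composition and depth, and the values are descriptive. The 4 genes outside the members most like the class II mean, of 12408 compared, were Sh2d2a (r = 0.975), Gbp3 (0.948), H2-DMa (0.937) and Mgmt (0.934). Those most like the class I mean were Tgtp1 (0.955), Usp18 (0.95), Gbp3 (0.949) and Gbp7 (0.948), 3 of them interferon-inducible GTPases. Sh2d2a, an adaptor of T cells, averaged 5.65 ± 0.632 CPM in shG0s2, 5.26 ± 0.748 CPM in shRgs16 and 2.28 ± 0.842 CPM in shLacZ (SD, n = 4 each). Gbp3 was near both class means and did not pass the test in either knockdown (edgeR adjusted p = 0.147 and 0.932).

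In the authors' deposited table for shG0s2, all 5 class II genes and no class I gene carried the mark of significance. The authors' deposited table for shRgs16 marked 4 of 5 class II genes and no class I gene. Marked genes in those authors' deposited tables had an absolute log2 fold change of at least 1 and an adjusted p of at most 0.05. Cd74 in shRgs16 was left unmarked there at a log2 fold change of 0.87 and an adjusted p of 4.88e-12 in the authors' deposited table. H2-K1 in shG0s2 was left unmarked at -0.44 and 2.01e-07 in the authors' deposited table.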

How the data were processed

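Liver RNA was depleted of ribosomal RNA and sequenced in 12 samples, grouped by their titles. The authors deposited 1 table per knockdown, and per the file headers each holds estimated counts and TPM per gene and sample. The same deposited tables give a log2 fold change and an adjusted p-value, which are the authors' own. Tools listed in the submitters' processing notes, without their roles, were DESeq2, SAMtools 1.9, GATK 3.8, fastp 0.19.5 and Bowtie2 2.2.9. No source used here states the counting program, annotation, build or strand. Many estimated counts were fractional, a sign that reads shared by similar genes, MHC genes among them, were divided by a model. The shLacZ columns were identical in both tables (0 values different over 8 columns), so the tables were joined.

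Estimated counts were rounded. Genes kept by filterByExpr were scaled by TMM and tested two-sided with the robust quasi-likelihood test of edgeR 4.0.16 in R 4.3.3, with Benjamini-Hochberg adjustment over all genes and a threshold of 0.05. Each knockdown was fitted with the 4 shLacZ samples, and shG0s2 against shRgs16 in a model of all 12 samples. The fit was tested on simulated counts. TPM, on log2(TPM + 1) and log2(TPM + 0.1), was tested with limma 3.58.1 as an alternative, beside DESeq2 1.42.0, limma-voom, other scalings and filters, a replicate block and each sample left out. Symbols and coordinates were checked by gene identifier against GENCODE vM21 on GRCm38, which held 55450 of 55536 identifiers.

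The genes, the 7 pathway lists and the 8 marker lists were chosen with earlier results of these data known. Genes named from a list are among the up to 2 called in each direction with the smallest p per comparison, unless stated. Beside these, the 4 genes most like each class mean were taken, among genes of at least 1 CPM. Not every gene taken by these rules is reported here.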

Additional observations from a re-analysis of the deposited data

Results flagged for a closer look

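Of 63 sets of 4 values examined (each member gene in each group, with the ratios and sums), 1 held a sample far from the rest. H2-D1 had 1859.5 CPM in shRgs16 replicate 4, where the other shRgs16 samples had 1699 to 1709 CPM. Its gap to the nearest sample was 0.935 of the group's range, above the 95% critical value of Dixon's test. Chance alone marks about 5% of such sets.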

How the results depend on the processing

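Class II genes kept their direction in every alternative fit run, and their call in 286 of 290. The other 4 were Ciita on log2 TPM, in shRgs16 against shLacZ (adjusted p = 0.0704 with TPM + 1 and 0.0612 with TPM + 0.1) and in shG0s2 against shRgs16 (0.0896 and 0.116). Of 290 class I fits, 234 kept their side of the threshold, and their direction where called, 18 gained a call, 25 lost one and 13 reversed. Reversed values came from library size alone, log2(TPM + 1) and log2(TPM + 0.1), which do not correct composition. H2-K1 became 0.059, 0.236 and 0.237 in shG0s2 and 0.091, 0.165 and 0.165 in shRgs16, each against shLacZ, and 0.072 with both TPM forms in shG0s2 against shRgs16. B2m became 0.35, 0.57 and 0.57 in shG0s2, and 0.12 with both TPM forms in shRgs16.

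Under the same 3 settings the class I and class II medians were 0.54, 0.75 and 0.75 and 2.13, 2.29 and 2.36 in shG0s2, and 0.28, 0.41 and 0.42 and 1.43, 1.54 and 1.55 in shRgs16. In shG0s2 against shRgs16 they were 0.19, 0.27 and 0.28 and 0.74, 0.79 and 0.79. Leaving out each sample moved the class I median in shRgs16 between -0.13 and 0.12. Class I minus class II stayed between -1.67 and -1.53 in shG0s2.

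Genes called numbered 9431 (4875 higher, 4556 lower), 7519 (3770, 3749) and 6640 (3359, 3281) for shG0s2 against shLacZ, shRgs16 against shLacZ and shG0s2 against shRgs16. Library size alone split them as 10067 and 1246, 7686 and 1279, and 6054 and 1568. With a replicate block the counts were 9299, 7104 and 6534, and H2-K1 in shRgs16 lost its call (adjusted p = 0.0636), as it did with all 12 samples in the model (0.05). Same-numbered samples correlated at -0.074 to 0.135 over 12 pairs, so the numbers were not taken as pairs. Tap1 lost its calls with no filter (adjusted p = 0.125 against shLacZ, 0.0829 against shRgs16).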
